A study of Ovis aries and Bos taurus with 6 samples.

Results

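The miRNAs described here are 8 that are known from white blood cells or from inflammatory signalling: miR-150, miR-223, miR-142, miR-146a, miR-146b, miR-155, miR-342 and miR-147. They were measured by small RNA sequencing of extracellular vesicles (EVs), membrane particles that cells shed, in 3 libraries from milk of 3 Ordos fine wool sheep and 3 libraries from milk of Holstein cows. All animals were females in mid lactation. The labels conflict on the cow samples, since their treatment protocol names Ordos sheep milk, against their organism, breed and title. The groups here follow title and breed. The labels give no ages and no number of cows, and the cow libraries come from an earlier study by the same group. Species, breed and study can therefore not be told apart in any comparison between sheep and cow. Rows were taken by name, with the 2 arms of a hairpin kept apart. The sheep table had 685 rows, of which 10 were members, 1 by its miRBase name (miR-150) and 9 because the listed sequence was that of a member over at least 17 bases. The cow table had 779 rows, of which 8 were members, all by miRBase name. miR-147 and the 5p arm of miR-223 had a row in the sheep table only, so 8 of the 154 names joined between the species were members.

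A miRNA guides Argonaute proteins to messenger RNAs that pair with its seed, bases 2 to 8, and lowers their output. miR-150 is abundant in mature lymphocytes, miR-342 is well expressed in lymphocytes and other blood cells, miR-223 is best known from neutrophils and other myeloid cells, and miR-142 is made across the blood cell lineages. miR-146a, miR-155 and miR-147 are switched on by inflammatory signals that act through NF-kappaB, and miR-146a in turn limits that pathway. Milk carries macrophages, neutrophils and lymphocytes beside shed epithelial cells, and mammary epithelium itself can also make miR-146 and miR-155, so none of these miRNAs proves a cell of origin. In vesicles of mixed origin, fewer cells of a type and less RNA per cell cannot be told apart.

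The sequences listed in the sheep table show which arm and which end each row counts, with the seed in capitals. They are printed 5′ to 3′ with T for U, since every comparison below rests on these rows.
miR-146a: tGAGAACTgaattccataggttg
miR-146b: tGAGAACTgaattccataggct
miR-155: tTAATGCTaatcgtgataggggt
miR-142-5p: cCCATAAAgtagaaagcact
miR-142-3p: gTAGTGTTtcctactttatggat
miR-223: tGTCAGTTtgtcaaatacccca
miR-223-5p: tGTGTATTtgacaagctgagttg
miR-147: gTGTGCGGaaatgcttctgc
miR-342: tCTCACACagaaatcgcacccatc
miR-150: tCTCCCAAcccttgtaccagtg

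miR-146a and miR-146b were the only members that shared a seed, and no other row of the sheep table had it. Their rows were identical over the first 20 bases and differed over the 22 bases they share by 1 substitution, T21C, counted from 1 at the 5′ end with the base of miR-146a first. Reads that end before that base could not be assigned to either one, which leaves the split between these 2 rows uncertain. The listed miR-142-5p row began 2 bases before the textbook start of that arm and the miR-142-3p row 1 base after its textbook start, which moves both seeds; the other 7 rows named by sequence began at the textbook base. The cow table lists no sequences, so the ends counted for cow are not known here. Of the 8 members only miR-150 has an entry in the sheep RefSeq gene table used here (assembly ARS-UI_Ramb_v3.0), on chromosome 14.

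The libraries held 1110632, 2078695 and 1073914 miRNA counts in sheep replicates 1, 2 and 3 and 328527, 556489 and 387723 in cow replicates 1, 2 and 3. Levels are given as CPM, the counts of a row per 1000000 counts of its library. A floor of 3 counts was worth 1.44 to 2.79 CPM in sheep libraries and 5.39 to 9.13 CPM in cow libraries. The mammary epithelial miRNA miR-148a took 19.6%, 63.6% and 38.0% of the sheep counts in replicates 1, 2 and 3 and 0.104% to 0.219% of the cow counts, so the marker of lactating epithelium was low in the cow rows that carry a name. In cow a single row without a name took 51.2% to 68.9% of a library. Named cow rows held 15.8% to 29.0%, and cow reads of a member that were counted in rows without a name are not in the values below. CPM are shares, so a row that takes more of a library lowers every other value in it.

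The 10 sheep rows together took 1.71%, 1.46% and 2.61% of the miRNA counts in replicates 1, 2 and 3, and the 8 cow rows took 0.490%, 0.918% and 0.502%. The means were 1.93% ± 0.602 in sheep and 0.637% ± 0.244 in cow (SD, n = 3 each). As a share of the joined miRNAs alone the order of the means turned round, with 2.03% ± 0.663 in sheep and 3.11% ± 0.599 in cow. The groups overlapped there, since sheep replicate 3 lay above cow replicate 1. The sheep sum was mostly miR-146a, and without it the shares were 0.763%, 0.274% and 0.546% in sheep and 0.458%, 0.885% and 0.494% in cow, which overlap. Of the constant by which the authors scaled their TPM values, the members took 0.188% ± 0.0121 in sheep and 0.0228% ± 0.0155 in cow.

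**Figure D1:**
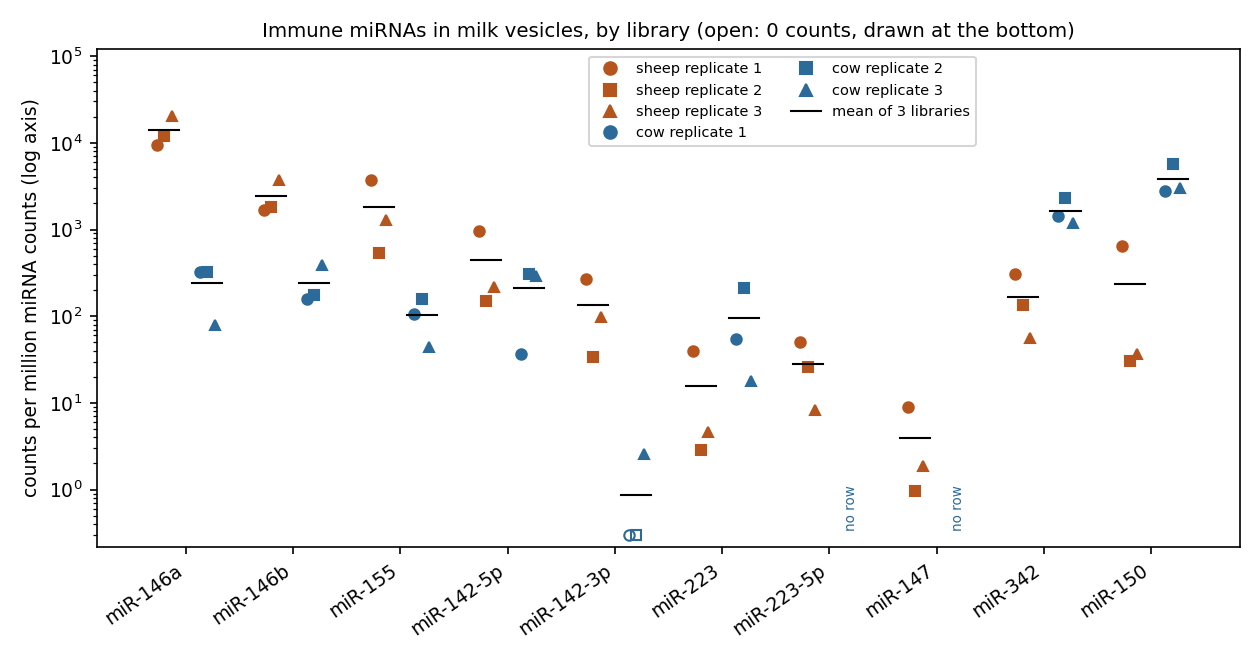
Level of each immune miRNA row in every library, in CPM on a log axis, with sheep left of cow for each miRNA and a bar at the mean of 3 libraries. miR-146a, miR-146b and miR-155 lay higher in all 3 sheep libraries, miR-342 and miR-150 higher in all 3 cow libraries, and miR-142-5p and miR-223 overlapped on this scale; open symbols are libraries with 0 counts.

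Sheep and cow were then compared over all joined miRNAs, with the members read from that fit. Of the 8 members tested, 4 were higher in sheep (miR-142-3p, miR-146a, miR-155 and miR-146b) and 3 were higher in cow (miR-150, miR-342 and miR-223), while miR-142-5p did not pass. The test was edgeR's quasi-likelihood test on counts with TMM normalization factors, and the threshold was a Benjamini-Hochberg adjusted p of 0.05 over the 135 miRNAs that passed the filter on low counts. Of all 135, 31.9% were called higher in sheep and 21.5% higher in cow, 53.3% in either direction, so a call alone does not set a member apart. After TMM scaling, 3 of the 8 members were higher in every sheep library than in any cow library, as were 37.0% of all tested, and 3 were lower in every sheep library, as were 26.7%. In either direction this makes 6 members, against 63.7% of all tested. The median log2 fold change of sheep over cow was 0.58 over the members and 0.36 over all tested. The split of all calls was 43 higher in sheep and 29 higher in cow with TMM factors, 23 and 33 without factors, 60 and 15 with whole-table totals, and 84 and 7 with limma on log2(TPM + 1), deposited TPM. The median shift of all fold changes from the TMM values was -0.75, 1.47 and 2.80 on the log2 scale in these 3 settings. The labels do not say that the cow libraries came from separate animals, so p-values measure the spread between these libraries.

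miR-146a, the NF-kappaB-induced brake on innate signalling, was the most abundant member in sheep. It stood at 9490, 11870 and 20612 CPM in sheep replicates 1, 2 and 3, against 323, 325 and 80.0 CPM in cow replicates 1, 2 and 3. Every sheep library lay above every cow library, and miR-146a was 19th, 11th and 12th of all rows in the sheep libraries, where it was 89th, 83rd and 143rd in the cow libraries. Its log2 fold change was 4.57 ± 0.68 (SE, n = 3 each, adjusted p = 9.81e-05, edgeR), higher in sheep, and was called higher in sheep in each of 16 other settings, from 3.72 to 7.40.

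miR-146b, which shares that seed and comes from another locus, was the second member in sheep replicates 2 and 3 and the third in replicate 1. It stood at 1676, 1819 and 3749 CPM in sheep, against 158, 176 and 387 CPM in cow. The groups did not overlap as shares of all counts, but did after TMM scaling, where cow replicate 3 passed sheep replicate 1. It was higher in sheep, with a log2 fold change of 1.85 ± 0.70 (adjusted p = 0.0395, edgeR). That call ended without normalization factors (0.88), and when sheep replicate 3 (1.45), cow replicate 1 (1.72) or cow replicate 2 (1.67) was left out.

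miR-155, an miRNA of activated lymphocytes and macrophages, stood at 3688, 538 and 1283 CPM in sheep, against 107, 156 and 43.8 CPM in cow. The lowest sheep library lay above the highest cow library, and sheep replicate 1 stood above the other sheep libraries. miR-155 was higher in sheep, with a log2 fold change of 2.57 ± 0.78 (adjusted p = 0.0147, edgeR), which did not pass without normalization factors (2.05, adjusted p = 0.0674).

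The 2 arms of miR-142, a miRNA of all blood lineages, behaved differently between the tables. miR-142-5p stood at 956, 151 and 219.8 CPM in sheep, against 36.5, 305 and 294 CPM in cow. The groups overlapped, since sheep replicate 1 was highest of all 6 libraries and cow replicate 1 lowest. The log2 fold change was -0.70 ± 0.97 (95% interval -2.78 to 1.38, adjusted p = 0.549, edgeR), and became 1.06 with totals of the whole table and 2.33 with limma on log2(TPM + 1), neither past the threshold. The interval leaves room for a difference of several-fold in either direction.

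miR-142-3p had 300, 70 and 104 counts in sheep, against 0, 0 and 1 counts in cow. The ratio of normalized rates was 54.5 with a 95% counting interval of 9.74 to 2157. It passed edgeR's test (adjusted p = 0.0160), but not without cow replicate 1 (adjusted p = 0.0531) or cow replicate 2 (adjusted p = 0.0613), and it was under the filter on low counts without sheep replicate 1 or 3. The ratio was 31.9 without sheep replicate 1 and 28.4 without cow replicate 2. The 5p arm outnumbered the 3p arm by 3.54, 4.47 and 2.27 to 1 in sheep replicates 1, 2 and 3, against 114 to 1 in cow replicate 3 and 12 and 170 counts to 0 in cow replicates 1 and 2. The 2 arms of a hairpin come from 1 transcript, and the sheep and cow rows may count different ends, which was not tested.

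miR-223, which restrains neutrophil activation, was sparse in both species. It had 44, 6 and 5 counts (39.6, 2.89 and 4.66 CPM) in sheep, against 18, 119 and 7 counts (54.8, 214 and 18.1 CPM) in cow. Sheep replicate 1 lay inside the cow range as a share of all counts, and the groups separated only after TMM scaling. miR-223 was lower in sheep, with a log2 fold change of -4.26 ± 1.42 (adjusted p = 0.0219, edgeR). The call ended without sheep replicate 2 (-3.78), sheep replicate 3 (-3.84) or cow replicate 2 (-2.86), with totals of the whole table (-2.61), and with limma on log2(TPM + 1) (-0.66) and log2(TPM + 10) (-0.20). The other arm, miR-223-5p, had 56, 54 and 9 counts in sheep, more than miR-223 in every sheep library. miR-147, induced in macrophages by bacterial products, had 10, 2 and 2 counts in sheep and was the rarest member there.

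miR-342 stood at 306, 135 and 55.9 CPM in sheep, against 1418, 2298 and 1179 CPM in cow. All cow libraries lay above all sheep libraries. It was lower in sheep, with a log2 fold change of -4.84 ± 0.70 (adjusted p = 7.95e-05, edgeR), and the call held with each library left out in turn. It did not pass with limma on log2(TPM + 1) (-1.82) or log2(TPM + 10) (-1.26).

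miR-150, the lymphocyte miRNA that limits the transcription factor MYB, was the first member in every cow library. It stood at 637, 30.8 and 36.3 CPM in sheep, against 2806, 5704 and 3012 CPM in cow. Even sheep replicate 1 lay below every cow library, and sheep replicates 2 and 3 were far below replicate 1. miR-150 was lower in sheep, with a log2 fold change of -5.85 ± 1.00 (adjusted p = 0.000301, edgeR), called lower in sheep in all 17 other settings from -7.16 (without sheep replicate 1) to -2.42.

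**Figure D2:**
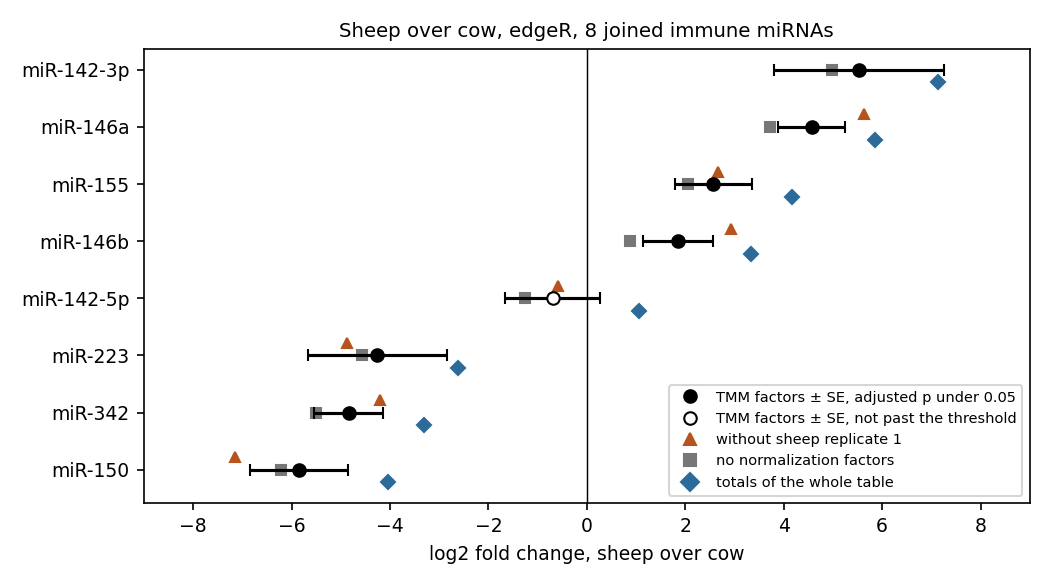
Log2 fold change of sheep over cow for the 8 joined immune miRNAs, with SE bars from edgeR, and the same value in 3 other settings: sheep replicate 1 left out, no normalization factors, and whole-table totals. miR-146a and miR-150 stay on opposite sides of 0 in all settings shown, miR-142-5p crosses 0, and the fitted value of miR-142-3p rests on 1 cow count and has no point without sheep replicate 1.

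The make-up of the set, which does not depend on library scaling, differed between the species. miR-146a made up 55.4%, 81.3% and 79.1% of the member counts in sheep replicates 1, 2 and 3, against 6.58%, 3.54% and 1.59% in cow replicates 1, 2 and 3. miR-150 made up 3.72%, 0.211% and 0.139% in sheep, against 57.2%, 62.1% and 60.1% in cow. miR-342 added 28.9%, 25.04% and 23.5% of the cow member counts, so the 2 lymphocyte miRNAs held most of the set in every cow library. In sheep, miR-146a, miR-146b and miR-155 together held most of it in every library.

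Ratios between members within a library showed the same separation. The ratio of miR-146a to miR-150 was 14.9, 386 and 568 in sheep replicates 1, 2 and 3, against 0.115, 0.0570 and 0.0265 in cow replicates 1, 2 and 3. That of miR-155 to miR-150 was 5.79, 17.5 and 35.3 in sheep, against 0.0380, 0.0274 and 0.0146 in cow. The ratio of miR-342 to miR-150 was steady in cow, at 0.505, 0.403 and 0.391, and wider in sheep, at 0.480, 4.38 and 1.54. That of miR-146a to miR-146b was 5.66, 6.53 and 5.50 in sheep, against 2.04, 1.85 and 0.207 in cow. Ligation of adapters favours some sequences, so a ratio between 2 miRNAs is not a ratio of molecules. The same ratio can be set against itself only in libraries made and counted alike. The cow libraries come from an earlier study and their rows list no sequences, so whether this holds between sheep and cow was not tested.

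**Figure D3:**
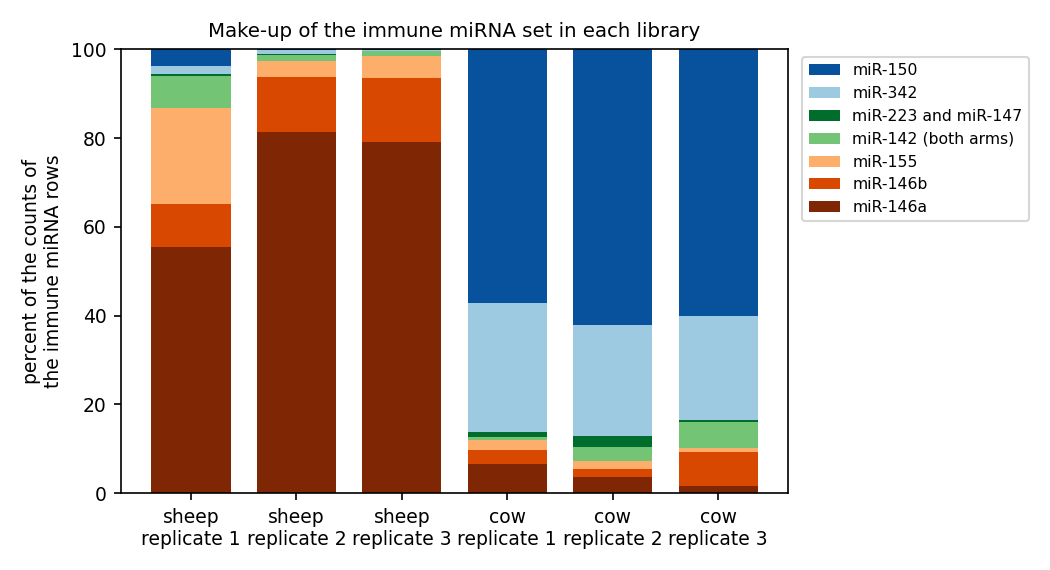
Percent of the counts of the immune miRNA rows that each miRNA took, in stacked bars from 0 to 100% for each library, sheep left of cow. miR-146a, miR-146b and miR-155 fill most of each sheep bar, and miR-150 and miR-342 fill most of each cow bar.

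The order of levels was similar among libraries of a species for the abundant members and less so for the others. In sheep, miR-146a ranked 1 and miR-142-5p ranked 4 in each library, and miR-223-5p, miR-223 and miR-147 were the 3 lowest. miR-146b and miR-155 changed places between replicate 1 and the others, and miR-342, miR-142-3p and miR-150, with means of 166 ± 128, 134 ± 122 and 235 ± 349 CPM (SD, n = 3), did not differ beyond their spread. In cow, miR-150 was first, miR-342 second and miR-142-3p last in each library. The neighbours between them, miR-146a (243 ± 141 CPM), miR-146b (240.4 ± 127), miR-142-5p (212 ± 152), miR-155 (102 ± 56.4) and miR-223 (95.6 ± 104), overlapped, and their order was not the same in each library. Some pairs kept their order, with miR-155 below miR-146a and miR-146b, and miR-223 below miR-146a, in every cow library. Leaving aside miR-142-3p with its 0 counts, the member that varied most in cow was miR-223, with 11.8 times as many CPM in the highest as in the lowest library, and in sheep miR-150, with 20.7 times.

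Sheep replicate 1 stood apart from the other sheep libraries in the members. It is 1 library, so its values carry no test. Relative to the mean of sheep replicates 2 and 3, miR-150 was 19-fold higher in CPM, miR-223 10.5-fold, miR-142-5p 5.16-fold, miR-142-3p 4.14-fold, miR-155 4.05-fold, miR-342 3.21-fold and miR-223-5p 2.94-fold. miR-146b stood at 0.602 and miR-146a at 0.584 of that mean. miR-147 was 6.38-fold higher on too few counts to be included. Among rows with a mean of at least 10 counts over the sheep libraries, 7 of 9 member rows were more than 2-fold higher in replicate 1 and 0 more than 2-fold lower. Over all 454 such rows 41.4% were more than 2-fold higher and 36.3% more than 2-fold lower, and of the 198 rows with a name 43.9% were higher. The median fold was 4.05 over the member rows, 1.64 over the 189 other rows with a name and 1.28 over all 454.

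These folds depended on the denominator, and miR-148a took a smaller share of replicate 1 than of the other sheep libraries. With the largest row of each library left out of the total, miR-150 was 11.1-fold and miR-223 6.38-fold higher in replicate 1, miR-342 was at 1.65 and miR-223-5p at 1.48, and miR-146a and miR-146b fell to 0.358 and 0.377. Then 5 of 9 member rows were more than 2-fold higher and 2 more than 2-fold lower, against 28.2% and 43.2% of all 454 rows. With TMM factors among the sheep libraries the counts were also 5 and 2, against 24.4% and 47.8% of all rows, with miR-150 at 8.73. miR-150, miR-223, both arms of miR-142 and miR-155 were more than 2-fold higher in replicate 1 under each of these scalings.

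Several markers of other cells also stood apart in that library, while the sum of a wider list of immune miRNAs did not. The wider list, 16 of 17 miRNAs with a sheep row, summed to 5.33% of the counts in replicate 1, against 3.58% and 6.92% in replicates 2 and 3, a fold of 1.02 over their mean. The sum of the member rows did not stand apart either, at 1.71% against 1.46% and 2.61%. A sum follows its largest rows and can hide single rows that differ. Of 3 red cell markers only miR-486 had a sheep row (miR-451 and miR-144 had none), and it was at 7.72% of the counts in replicate 1, against 0.0741% and 0.0705% in replicates 2 and 3. The liver miRNA miR-122 was at 7.02%, against 0.184% and 0.570%. The 4 muscle markers summed to 2.66%, against 0.0550% and 0.0876%. miR-1 made up most of that sum in every sheep library, at 28528, 1052 and 698 counts. miR-206 had 807, 52 and 100 counts in replicates 1, 2 and 3. miR-133b did not stand apart, with 21, 13 and 31 counts, and was highest in replicate 3. The endothelial miR-126 summed to 0.477%, against 0.0502% and 0.123%. The 5 epithelial markers with a row, of 6, summed to 0.695%, against 0.267% and 0.439%. In cow the 3 red cell markers summed to 1.53% to 2.76% of the counts, with miR-122 at 0.0320% to 0.101%. Their part in the levels of the immune miRNAs was not tested. miR-150 was still lower in sheep than in cow without replicate 1, at -7.16 ± 0.81 on the log2 scale (adjusted p = 5.59e-16, edgeR). With all 6 libraries its adjusted p was 0.000301 (edgeR). The test draws its dispersions partly from all tested miRNAs, so the smaller p on fewer libraries is no measure of stronger evidence. Without replicate 1, miR-223 was also still lower in sheep at -4.87 ± 1.80 (adjusted p = 0.0142, edgeR), and miR-155 was still higher at 2.66 ± 0.88 (adjusted p = 0.00553).

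**Figure D4:**
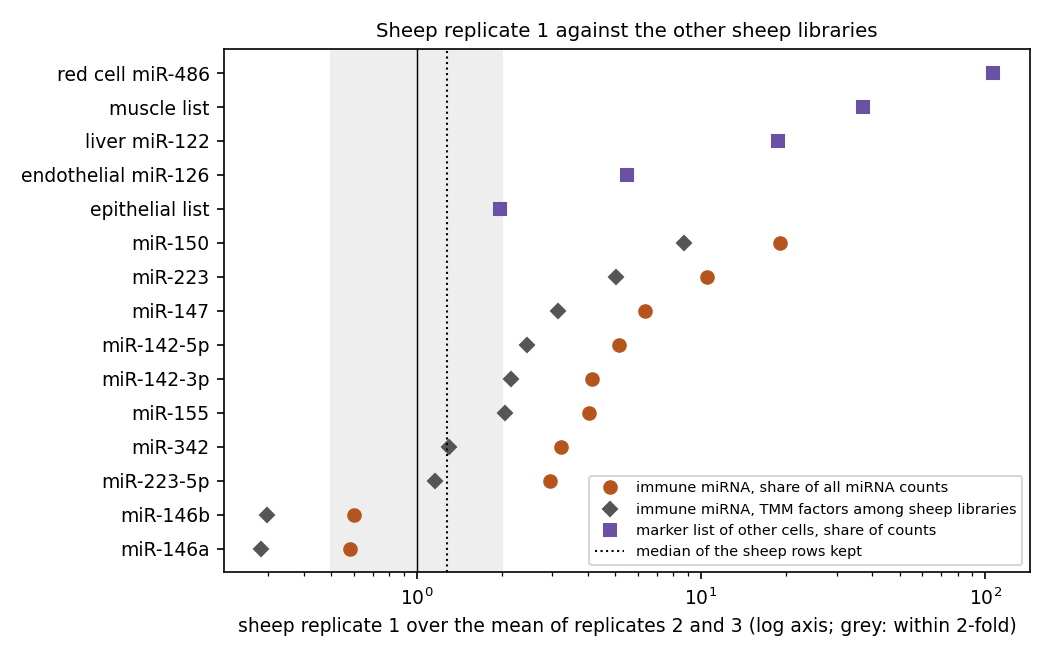
Fold of sheep replicate 1 over the mean of sheep replicates 2 and 3 on a log axis, for each immune miRNA row as a share of all counts and with TMM factors and for marker lists of other cells, with the range within 2-fold in grey and the median of all sheep rows kept as a dotted line. miR-150 and miR-223 lie farthest to the right among the members, miR-146a and miR-146b lie left of 1, and miR-486 lies at 107-fold.

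Grouped by the cells they are known from, the lymphocyte miRNAs miR-150, miR-342 and miR-155 summed to 4632, 703 and 1375 CPM in sheep replicates 1, 2 and 3, against 4331, 8158 and 4235 CPM in cow replicates 1, 2 and 3. As shares of all counts the groups overlapped through sheep replicate 1, and miR-155 made up most of the sum in every sheep library. The sum was not taken after TMM scaling. There, miR-150 and miR-342 were each lower in every sheep library than in any cow library, while miR-155 was higher in every sheep library. miR-223, miR-142 and miR-147 summed to 1325, 214 and 331 CPM in sheep, against 91.3, 519 and 315 CPM in cow, and overlapped as well. miR-142, which is made across the blood lineages, made up most of that sum in every sheep library and in cow replicates 2 and 3. In cow replicate 1 it was mostly miR-223. After TMM scaling, miR-223 alone was lower in every sheep library than in any cow library. The inflammation-induced miR-146a, miR-146b, miR-155 and miR-147 summed to 14863, 14228 and 25646 CPM in sheep, against 587, 658 and 511 CPM in cow, without overlap. miR-146a made up most of that sum in every sheep library, and miR-147 had no cow row. miR-146b alone overlapped between the species after TMM scaling. miR-155 and miR-147 are counted in 2 of these groups.

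In the profile over all 6 libraries, the tested miRNAs most like miR-150 were miR-126-5p, miR-30d and miR-342. Their root mean square differences from it, in centred log2(CPM + 1) after TMM scaling, were 1.06, 1.14 and 1.28. Those most like miR-142-3p were miR-200c (0.91), miR-485 (0.99) and miR-543 (1.06). Both members were picked by their fold change, and the profile spans both species. A like gap between sheep and cow therefore counts toward likeness by construction. miR-485 also had 0, 0 and 1 counts in cow, as did miR-142-3p. miR-142-3p had the highest fitted fold change of the members with TMM factors, but on 1 cow count. miR-146a was the higher with limma on log2(TPM + 1), at 7.40 against 3.41, and without cow replicate 2, at 4.86 against 4.84.

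Of 17 further miRNAs known from immune regulation, 14 were joined between the species and 13 tested. Of these 13, 5 were higher in sheep and 2 higher in cow, against 31.9% and 21.5% of all tested, with a median log2 fold change of 1.96 against 0.36 over all tested. The 4 most abundant were miR-21-5p, widely induced in inflammation (2.33 ± 0.57, adjusted p = 0.00473, edgeR), miR-125a (-1.68 ± 0.62, adjusted p = 0.0335), miR-125b (0.071 ± 0.49, adjusted p = 0.907) and miR-24-3p (1.96 ± 0.58, adjusted p = 0.0128). miR-125a was called lower in sheep in 6 of 16 other settings and was at 0.029 with totals of the whole table, and miR-24-3p did not pass without normalization factors (1.09), with the largest sheep row of each name (1.19) or without sheep replicate 3 (1.52).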

How the data were processed

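Small RNA of milk EVs was sequenced in 3 sheep and 3 cow libraries. Per the labels' protocols, a commercial exosome isolation kit gave the vesicles and TruSeq Small RNA kits the libraries. The tools named, per the submitters' processing notes, are Bowtie and cutadapt 1.14, and the sources used here give no genome build, miRBase release or counting tool. Each species has its own deposited table of counts, whole reads per miRNA row. The deposited TPM values are these counts over 1 constant per library (9859791 to 16091056), scaled alike, with no length term; what it counts is not stated.

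Sheep rows without a miRBase name were named where at least 17 bases were identical to a textbook mature sequence, with an offset of at most 2, a length difference of at most 4 and the textbook seed present at that offset. The textbook sequences are general knowledge, not read from a reference file. Cow rows have no sequences and could not be treated alike. Names were joined with the species prefix removed (42 by miRBase name alone, 96 by sequence, the rest after dropping an arm suffix). Sheep rows given 1 name by sequence were summed. Where a sheep row with a miRBase name held the name, the largest such row was used and rows named by sequence were not added. The join holds 93.8% to 97.6% of the sheep and 14.2% to 27.2% of the cow counts.

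Counts were tested with edgeR 4.0.16 (quasi-likelihood, TMM, library size equal to the joined total, default filterByExpr, Benjamini-Hochberg adjustment) in R 4.3.3. The SE is the fold change over the square root of its F. In counts simulated for this comparison with 135 miRNAs, 21 of 40 changed by 3 on the log2 scale were recovered, with 0 false calls. Every simulated miRNA had the same dispersion, and as many were changed up as down. The simulation therefore could not show false calls that come from scaling or from uneven dispersion in the real libraries. Alternatives were DESeq2 1.42.0, limma 3.58.1 on log2(TPM + 1) and log2(TPM + 10), other normalizations, library sizes, filters and joins, a replicate block, and leaving out each library in turn. No 2 libraries held the same values. Intervals are 95% and, for ratios of counts, cover counting error only, since PCR copies are not independent molecules.

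All member rows are named, with the 4 most abundant tested of a further immune list and the 3 miRNAs nearest in profile to the 2 members with the lowest and highest fold change in the edgeR fit with TMM. The members, lists and rules were chosen with earlier results of these data known.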

Additional observations from a re-analysis of the deposited data

Results flagged for a closer look

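These sheep rows belong to the same hairpins or miRNAs but entered no comparison between the species. miR-223-5p had 119 counts over the 3 sheep libraries (56, 54 and 9), above the floor of 3 counts. miR-147 had 14 counts (10, 2 and 2). The row numbered as partner strand of the miR-342 row, which the rule for members did not take, had 879 counts (252, 81 and 546) against 680 for miR-342 itself, and was highest in replicate 3 where miR-342 was lowest. The partner strand of the miR-146b row had 36 counts (0, 35 and 1), nearly all in replicate 2.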

How the results depend on the processing

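Calls over all joined miRNAs came to 72, and to 20 with miRBase names only (38 tested); they ran from 52 to 72 with 1 library left out and came to 82 with DESeq2. Same-numbered sheep and cow libraries come from different species, so their numbers pair no animals. Their correlations of deviations were -0.032, 0.141 and -0.068, while sheep replicate 1 reached -0.149 with cow replicate 2 and 0.151 with cow replicate 3. The replicate block gave 73 calls. Values changed sign for miR-142-5p (1.06 with totals of the whole table, 2.33 and 1.39 with limma on log2(TPM + 1) and log2(TPM + 10)), for miR-125a (0.029, 1.18 and 1.14 in the same settings) and for miR-125b (-0.71 without normalization factors, and -0.072 to 0.79 with 1 library left out). The cause was not tested. The mean summed share of the member rows moved to 3.45% in sheep and 1.56% in cow with the largest row left out of each total. With the joined total it moved to 3.11% in cow, where the sheep mean (2.03%) was the lower and the groups overlapped. As deposited TPM it was 0.188% in sheep and 0.0228% in cow. By miRBase names alone it was 0.0235% in sheep. With 1 library left out, an alternative chosen after seeing the data, it ran from 1.59% to 2.16% in sheep and from 0.496% to 0.710% in cow. Member rows more than 2-fold lower in sheep replicate 1 numbered 2 of 9 without the largest row (43.2% of all rows) and with TMM factors (47.8%), and 0 to 2 with 1 of the other sheep libraries left out (26.4% to 28.0%). The values of miR-223, miR-147 and, in cow, miR-142-3p rest on few counts in at least 1 library.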
